A study of Mus musculus with 8 samples.

Results

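The genes described here are 10 members of the mouse Hippo pathway, found by their symbols among the 33971 genes listed for whole brains of E14.5 embryos. They are the TEAD transcription factor genes *Tead1*, *Tead2*, *Tead3* and *Tead4*, the coactivator genes *Yap1* and *Wwtr1* (which encodes TAZ), the kinase genes *Lats1* and *Lats2*, and the regulators *Amotl2* and *Vgll4*. All 10 passed the filter on low counts. WT females were mated with WT males at a timed date and kept from that day on a choline-deficient diet (CDD) or on normal chow (ND), and polyadenylated RNA was sequenced from 4 embryo brains per diet. The study used these brains to ask whether a lack of choline in the diet changes expression as loss of the choline transporter gene *Mfsd7c* does, and its knockout embryos are not analysed here. How many dams and litters the embryos came from is not given in the sources used here, so p-values measure the spread between these embryos, some of which may share a dam.

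In the Hippo pathway, the LATS kinases phosphorylate YAP and TAZ, which then stay outside the nucleus or are degraded. Unphosphorylated YAP and TAZ enter the nucleus and bind TEAD factors, which contact DNA and switch on genes of growth and of cell adhesion. In the embryonic brain the pathway is best known from neural progenitors, the dividing cells that line the ventricles, where YAP and TEAD activity favours progenitor expansion. RNA levels alone do not report phosphorylation or where YAP and TAZ are in the cell.

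Between 31770217 and 43121170 reads were counted on genes per brain. Over 19367 tested genes, 1710 (8.83%) passed an adjusted p of 0.05 for diet (edgeR quasi-likelihood test), 822 (4.24%) higher and 888 (4.59%) lower in CDD brains. CDD replicate 2 stood apart in 8 Hox genes of caudal hindbrain and spinal cord, with 3643 counts in all against 1 to 54 in each of the other brains. The neuronal genes *Tubb3* and *Dcx* were abundant in both diets, at 1882 ± 107 and 1608 ± 128 CPM (SD, n = 4) in CDD brains. Levels are given as CPM (counts scaled to a common library size by edgeR), unless FPKM, which also divides by gene length, is named. Changes are given as log2 fold changes of CDD over ND.

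Of the 10 Hippo members, 4 were called higher in CDD brains and 0 lower, where 4.24% of all tested genes were called higher. At an unadjusted p under 0.05 the count of lower members was also 0, where 4627 of all 19367 tested genes passed in either direction. With 10 members a count of 0 says little. *Tead2*, *Yap1*, *Wwtr1* and *Tead1* rose, and in each of them the lowest CDD value exceeded the highest ND value. Over all tested genes, 15.0% had diets that did not overlap, 7.65% with CDD above ND and 7.39% with CDD below ND. The other 6 members did not pass the test, and the diets overlapped in all 6. The median log2 fold change of the 10 was 0.07, beside -0.0038 over all tested genes. The members were chosen with results of these brains known. With each brain left out in turn, 4 or 3 members were called: *Tead2*, *Yap1* and *Wwtr1* in all 8 fits, and *Tead1* in 5. Without CDD replicate 2 the count was 4.

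**Figure D1:**
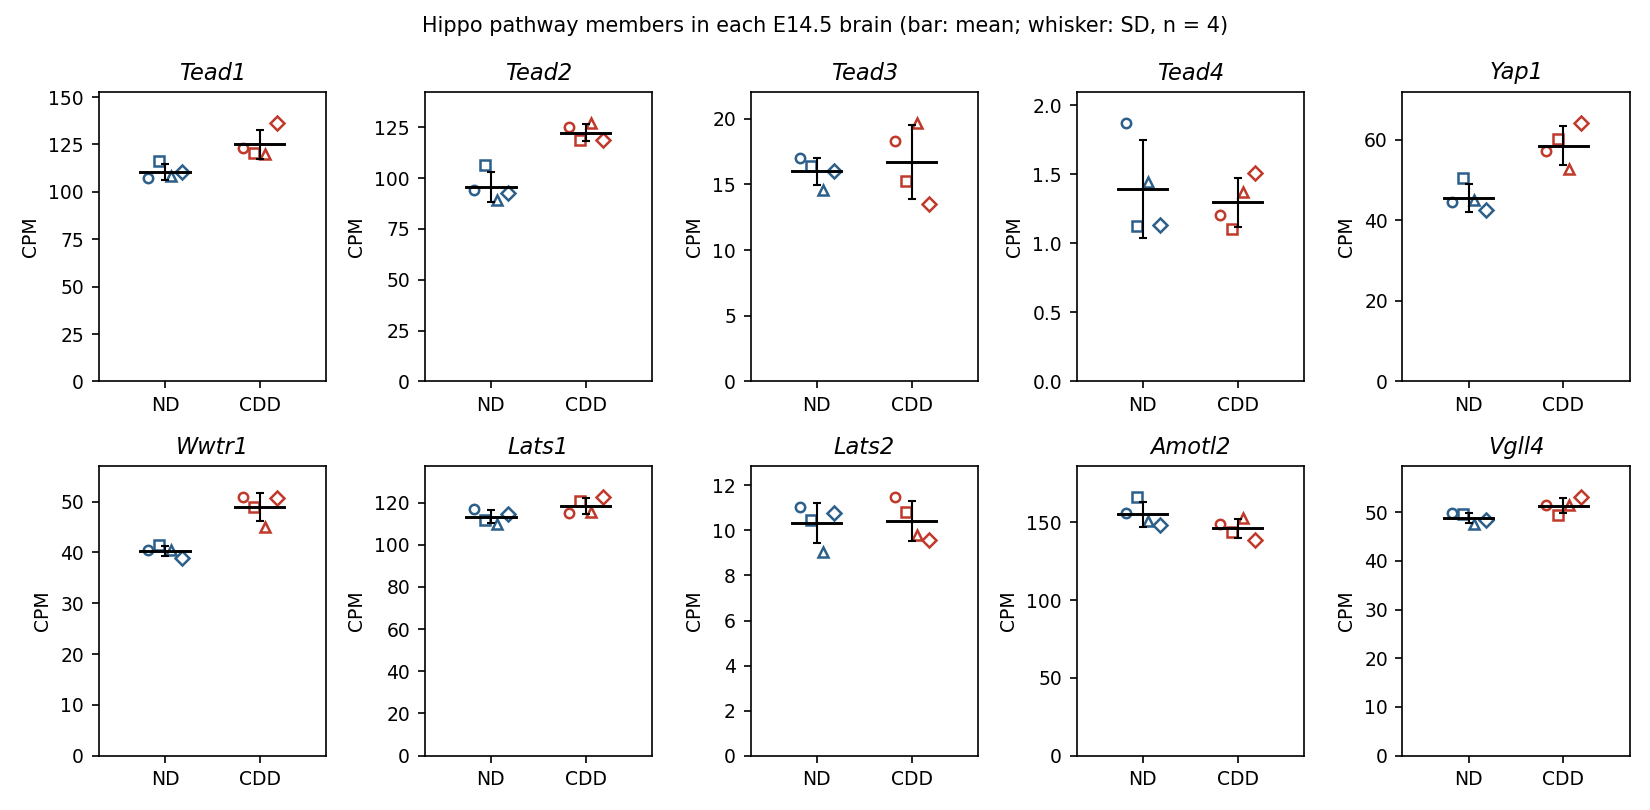
Level of each of the 10 Hippo pathway genes in CPM (vertical axes, each starting at 0) in 4 ND and 4 CDD brains, 1 symbol a brain (circle, square, triangle and diamond for replicates 1 to 4), with the mean (bar) and SD (whisker). The diets are apart in *Tead1*, *Tead2*, *Yap1* and *Wwtr1*, with CDD brains higher, and overlap in the other members.

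*Tead2*, which encodes the TEAD factor of early embryos and neural precursors, had the smallest p-value of the members. It lies on chromosome 7 from 44865177 to 44883068 (ENSMUSG00000030796; authors' coordinates, build not named). Its level was 125, 119, 127 and 119 CPM in CDD replicates 1 to 4. In ND replicates 1 to 4 it was 93.9, 107, 89.4 and 92.6 CPM. The lowest CDD brain was thus 12.2 CPM above the highest ND brain. The log2 change was 0.36 ± 0.050 (SE, edgeR adjusted p = 8.66e-04), or 1.28-fold, and its range was 0.33 to 0.41 over the 8 fits that omit 1 brain. The gene *Cd37* overlaps *Tead2* on the opposite strand but had only 24 to 51 counts per brain, against 3093 to 5471 for *Tead2*.

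*Tead1*, a TEAD gene with wide expression (ENSMUSG00000055320, chromosome 7, 112278525 to 112506014), was at 123, 120.3, 120.0 and 136 CPM in CDD brains. The ND brains had 107, 116, 108 and 110.4 CPM. The diets were apart by 3.55 CPM, with the gap set by CDD replicate 3 and ND replicate 2. Its log2 change was 0.18 ± 0.046 (SE, edgeR adjusted p = 0.0232). This call was lost without ND replicate 1, 3 or 4, where the adjusted p was 0.101, 0.115 and 0.0816 in the same test, while the log2 fold change stayed between 0.13 and 0.20 over the 8 fits.

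*Tead3* (ENSMUSG00000002249, chromosome 17, 28550645 to 28569791) was at 18.3, 15.3, 19.7 and 13.5 CPM in CDD and at 17.0, 16.4, 14.6 and 16.1 CPM in ND brains. The highest and the lowest of the 8 values were both CDD brains. Its log2 change was 0.06 ± 0.099 (SE, edgeR adjusted p = 0.765). *Tead4*, best known from the trophectoderm of the early embryo, is on chromosome 6 (ENSMUSG00000030353, 128201251 to 128277786) and was close to the low end of what was counted, with 40, 38, 59 and 50 reads in CDD and 64, 36, 50 and 39 reads in ND brains. Its log2 change was -0.10 ± 0.21 (SE, edgeR adjusted p = 0.816). With an SE of this size, a difference of *Tead4* as small as those of the called members was not detectable.

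The coactivator gene *Yap1* (ENSMUSG00000053110, chromosome 9, 7932000 to 8004597) was at 57.3, 60.1, 52.6 and 64.2 CPM in CDD brains. It was at 44.5, 50.6, 45.0 and 42.5 CPM in ND brains. The log2 change was 0.36 ± 0.064 (SE, edgeR adjusted p = 0.00288), the same size as that of *Tead2*, with a range of 0.31 to 0.41 over the fits with a brain left out. Its paralog *Wwtr1* (ENSMUSG00000027803, chromosome 3, 57363070 to 57483331) was at 50.8, 48.9, 44.9 and 50.8 CPM in CDD and at 40.4, 41.4, 40.4 and 39.0 CPM in ND brains. The 4 ND brains lay close together, with an SD of 0.988 CPM. Its log2 change was 0.28 ± 0.053 (SE, edgeR adjusted p = 0.00428). In all 4 of the called genes the highest ND brain was ND replicate 2, and in *Tead1*, *Yap1* and *Wwtr1* the lowest CDD brain was CDD replicate 3, which in contrast was the highest brain for *Tead2*.

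Promoter windows are shown for *Tead2*, *Yap1* and *Wwtr1* because these genes rose together. RefSeq windows (GRCm38.p6, from 250 bases before to 50 after a transcript start) were found for 8 of the 10 members, and none was used for *Tead1* and *Tead4*. Capitals mark GGAATG, the core that TEAD factors recognise, and TGGGAA, the core of the Notch effector RBPJ, on either strand. The windows are chr7:45215542-45215841 (plus strand) for *Tead2*, chr9:8004547-8004846 (minus strand) for *Yap1* and chr3:57575861-57576160 (minus strand) for *Wwtr1*, each written 5′ to 3′ along the gene:
Tead2: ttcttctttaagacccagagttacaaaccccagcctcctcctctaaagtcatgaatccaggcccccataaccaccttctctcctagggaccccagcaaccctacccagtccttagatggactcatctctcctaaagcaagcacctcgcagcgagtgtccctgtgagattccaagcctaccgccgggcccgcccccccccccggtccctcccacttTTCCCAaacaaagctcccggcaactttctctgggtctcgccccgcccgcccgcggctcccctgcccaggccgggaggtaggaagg
Yap1: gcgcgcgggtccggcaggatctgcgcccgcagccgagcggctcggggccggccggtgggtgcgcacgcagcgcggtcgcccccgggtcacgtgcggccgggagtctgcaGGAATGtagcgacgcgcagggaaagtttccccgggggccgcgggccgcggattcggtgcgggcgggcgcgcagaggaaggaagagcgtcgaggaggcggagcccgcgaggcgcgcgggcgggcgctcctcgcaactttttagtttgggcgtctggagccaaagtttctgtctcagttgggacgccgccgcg
Wwtr1: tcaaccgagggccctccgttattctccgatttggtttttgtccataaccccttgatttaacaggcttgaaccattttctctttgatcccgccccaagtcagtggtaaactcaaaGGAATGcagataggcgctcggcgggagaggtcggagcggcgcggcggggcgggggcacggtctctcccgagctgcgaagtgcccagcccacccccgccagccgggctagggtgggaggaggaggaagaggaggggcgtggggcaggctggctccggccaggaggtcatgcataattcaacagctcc
The last bases of the *Yap1* and *Wwtr1* windows were found in GENCODE M21 transcripts of these genes, and those of the *Tead2* window were not. The *Tead2* window held 1 TGGGAA match and 0 of GGAATG, and the *Yap1* and *Wwtr1* windows held 1 GGAATG match each. Over the 12 windows of the 8 members, some of which overlap, 8 held GGAATG, and so did at least 1 window of 6 members, among them the uncalled *Tead3*, *Lats2*, *Amotl2* and *Vgll4*. The core was found in 14.7% of all 32851 windows of this length, and in 16.6% of genes with a window. TGGGAA was found in 4 of the 12 windows and in 25.6% of all windows. The 2 cores can overlap. Of the 12 member windows, 11 had a GC content of at least 60%, and over the 9690 windows with such a content GGAATG was found in 9.40%. A match describes these letters alone and is not evidence of binding.

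The kinase gene *Lats1* (ENSMUSG00000040021, chromosome 10, 7556978 to 7592224) was at 115, 121, 116 and 122 CPM in CDD and at 117, 112, 109.8 and 115 CPM in ND brains. The diets overlapped, and its log2 change was 0.06 ± 0.040 (SE, edgeR adjusted p = 0.366). *Lats2*, the paralog whose transcription YAP and TEAD are known to induce in many cells (ENSMUSG00000021959, chromosome 14, 57927119 to 57995845), had 380, 374, 421 and 318 reads in CDD and 377, 335, 312 and 372 reads in ND brains, with means of 10.4 ± 0.890 and 10.3 ± 0.900 CPM (SD, n = 4). Its log2 change was 0.01 ± 0.089 (SE, edgeR adjusted p = 0.956), with a sign that changed when CDD replicate 1 (-0.033), CDD replicate 2 (-0.0067) or ND replicate 3 (-0.048) was left out. Among the genes listed for these brains, *Gm20430* and *Gm26440* overlap *Lats2*, with 1 to 12 and 0 to 3 counts per brain. In GENCODE M21, 41.2% of the stretches of 50 bases of *Lats2* transcripts are also in transcripts of *Gm49361*. How the authors' annotation assigned reads of such stretches is not known, so the level of *Lats2* is uncertain. For the other members the share of such stretches was at most 1.35%, and *Tead3* and *Tead4* had 10 of them in common.

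*Amotl2* encodes an angiomotin that holds YAP in the cytoplasm and is itself a known target of YAP (ENSMUSG00000032531, chromosome 9, 102593871 to 102610617). It was at 149, 144, 153 and 139 CPM in CDD and at 156, 166, 151 and 148 CPM in ND brains, with a log2 change of -0.09 ± 0.046 (SE, edgeR adjusted p = 0.266). Its mean was thus lower in CDD brains, opposite in sign to the called members, by a difference that did not pass the test. *Vgll4*, a cofactor that competes with YAP for TEAD (ENSMUSG00000030315, chromosome 6, 114837589 to 114946955), was at 51.4, 49.4, 51.5 and 53.1 CPM in CDD and at 49.8, 49.6, 47.5 and 48.3 CPM in ND brains. Of the CDD brains, all but CDD replicate 2 were above every ND brain, and its log2 change was 0.07 ± 0.047 (SE, edgeR adjusted p = 0.376).

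**Figure D2:**
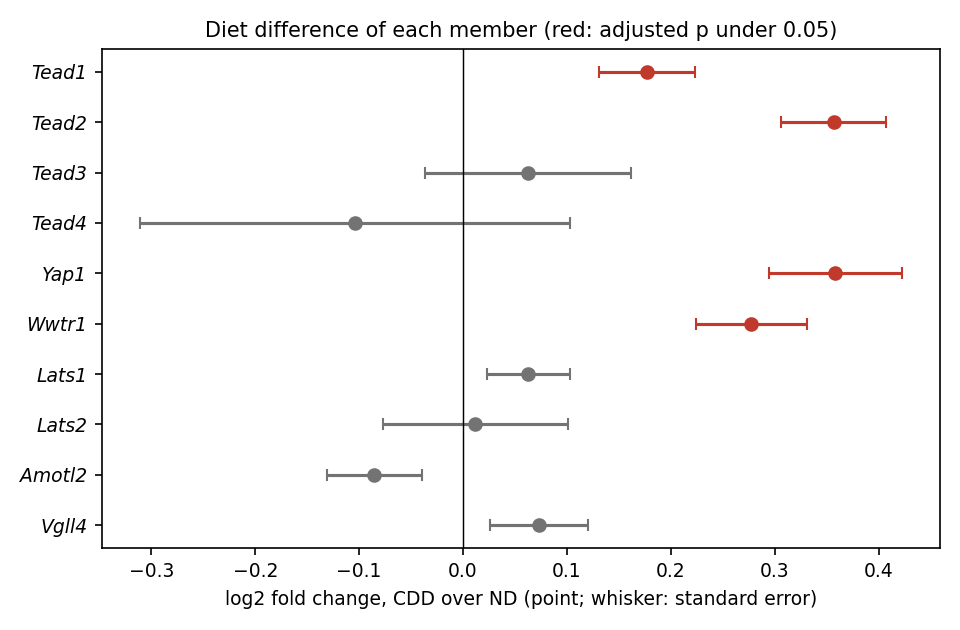
Log2 fold change of CDD over ND for each member (horizontal axis; point, estimate of edgeR's fit; whisker, 1 standard error), with genes past an adjusted p of 0.05 in red. *Tead1*, *Tead2*, *Yap1* and *Wwtr1* lie between 0.18 and 0.36, and the estimates of the other 6 lie between -0.10 and 0.07.

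Per gene length, *Amotl2* and *Tead2* had the highest levels of the members, with means over the 8 brains of 23.8 and 22.7 FPKM. *Amotl2* was above *Tead2* in 4 of 8 brains, which were the ND brains, whereas in CDD brains *Tead2* was at 25.5 ± 0.812 and *Amotl2* at 23.2 ± 0.905 FPKM (SD, n = 4). *Lats1* followed at 15.8 FPKM. *Wwtr1* (9.28), *Vgll4* (9.24) and *Tead1* (8.64 FPKM) were close to each other, and in CDD brains *Wwtr1* overlapped with *Vgll4* and *Vgll4* with *Tead1*. In each ND brain *Vgll4* was above *Wwtr1*, although the mean over the 8 brains was higher for *Wwtr1*. *Yap1* was at 5.60, *Tead3* at 2.42, *Lats2* at 1.48 and *Tead4* at 0.372 FPKM, each apart from its neighbours in this order within either diet.

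**Figure D3:**
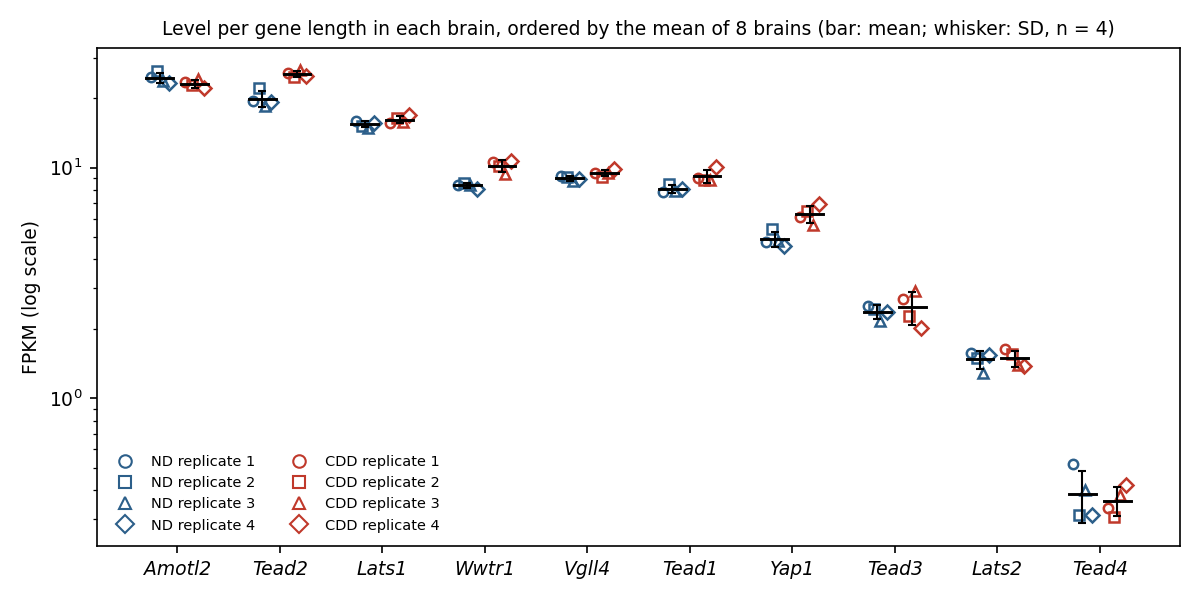
Level per gene length in FPKM (vertical axis, log scale) of the 10 members in each brain, ordered by the mean of 8 brains, with ND brains in blue and CDD brains in red, the mean (bar) and SD (whisker, n = 4). The levels run from 23.8 FPKM for *Amotl2* to 0.372 FPKM for *Tead4*.

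The summed FPKM of the 4 TEAD genes was 37.9, 36.2, 38.5 and 37.4 in CDD brains and 30.4, 33.4, 29.0 and 30.0 in ND brains. *Tead2* made up 67.9% ± 0.958 of this sum in CDD and 64.6% ± 1.11 in ND brains (SD, n = 4). The sum of *Yap1* and *Wwtr1* was 16.5 ± 1.08 FPKM in CDD and 13.3 ± 0.575 FPKM in ND brains (SD, n = 4). The TEAD sum divided by the sum of both coactivators was 2.28 ± 0.199 in CDD and 2.31 ± 0.0841 in ND brains (SD, n = 4), so the difference in this ratio was within the spread between brains.

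Whether paralogs changed by different amounts was tested on their log2 ratio within each brain, where library scaling nearly cancels. Of 8 pairs compared, 0 passed Benjamini-Hochberg adjustment (smallest adjusted p = 0.343, exact two-sided permutation test), and 0 had an unadjusted p under 0.05. The log2 ratio of *Tead1* to *Tead2* was 0.029 ± 0.12 in CDD and 0.21 ± 0.065 in ND brains (SD, n = 4; exact permutation p = 0.0857), lower in CDD by 0.18 with CDD replicate 4 inside the ND range. That of *Tead2* to *Tead3* was 0.31 higher in CDD brains (exact permutation p = 0.0571). The *Yap1* to *Wwtr1* ratio differed by 0.08 (exact permutation p = 0.171) and the *Lats1* to *Lats2* ratio by 0.05 (exact permutation p = 0.629). The smallest p that 4 brains against 4 can give is 0.0286, so a single pair could not pass adjustment over 8 pairs. A difference between the called and uncalled TEAD genes was not shown, and the adjusted test had little power to show one.

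Other genes of the pathway were read from a list of upstream regulators and core components. Of 27 listed genes, 26 were tested, 2 of them called higher and 0 lower (median log2 change 0.08). Beside them, 4.24% of all tested genes were called higher and 4.59% lower, so these counts are small and close to that background. The estimate was above 0 in 21 of the 26, where 49.1% of all tested genes were above 0. The diets were apart with CDD above ND in 5 of the 26 and below in 2, beside 7.65% and 7.39% of all tested genes. *Amot*, an angiomotin that binds YAP, was at 45.5, 42.9, 44.3 and 54.6 CPM in CDD and at 39.3 to 39.8 CPM in ND brains, with a log2 change of 0.24 (edgeR adjusted p = 0.0258). *Limd1*, an inhibitor of LATS, was at 42.5 to 52.7 CPM in CDD and at 39.0 to 41.1 CPM in ND brains, with a log2 change of 0.22 (edgeR adjusted p = 0.0344). For both genes the diets were apart. Without CDD replicate 4, its highest brain, *Amot* had a log2 change of 0.16 (edgeR adjusted p = 0.0464). Both calls were lost without any 1 of the 4 ND brains, where the count of called genes was 0 and the log2 change of *Amot* was 0.24 to 0.25, and that of *Limd1* also without CDD replicate 1 or 4 (edgeR adjusted p = 0.0616 and 0.0757). The kinase gene *Taok3* had a log2 change of -0.15 (edgeR adjusted p = 0.0535) and passed the threshold in 6 of 16 alternatives, with DESeq2, upper-quartile scaling, the *Xist* covariate, the gene length offset and the fits without CDD replicate 3 or 4. *Wtip* had a log2 change of -0.27 (edgeR adjusted p = 0.0891). It was called lower with DESeq2, no filter, the replicate block and the *Xist* covariate, and without CDD replicate 1 or 3. *Amotl1* (log2 change 0.14) was called higher with no filter, with the gene length offset and without CDD replicate 3. *Ptpn14* (0.19) was called higher without CDD replicate 2. The kinase genes *Stk3* and *Stk4* and the genes *Sav1*, *Mob1a*, *Mob1b* and *Nf2* were chosen here for their role after their values were seen. None of them was called in the main fit. *Stk4*, whose diets did not overlap, was called with no filter, with a gene length offset and without CDD replicate 3. *Mob1a* was called with the offset and without CDD replicate 3, and *Mob1b* without CDD replicate 3. The log2 change was 0.10 for *Stk3* and 0.15 for *Stk4*, which encode the MST kinases. It was -0.0026 for *Sav1*, 0.12 for *Mob1a*, 0.12 for *Mob1b* and 0.10 for *Nf2*, which encodes merlin.

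Genes known as targets of YAP and TEAD were called in both directions. Of 19 listed genes other than *Amotl2* and *Lats2*, 18 were tested, of which 1 was called higher and 2 lower in CDD brains, beside 4.24% and 4.59% of all tested genes. The estimate was below 0 in 12 of the 18 and above 0 in 6, where 49.1% of all tested genes were above 0. The median was -0.08. *Ccn2*, the connective tissue growth factor gene and a commonly used readout of YAP, was at 3.74, 4.17, 3.74 and 2.71 CPM in CDD and at 4.86, 4.97, 5.15 and 5.25 CPM in ND brains. No CDD brain reached the ND range, and the log2 change was -0.49 ± 0.13 (SE, edgeR adjusted p = 0.0251). *Igfbp3*, a secreted IGF binding protein gene, was at 17.4, 17.4, 22.8 and 17.2 CPM in CDD and at 28.3, 27.3, 30.9 and 28.3 CPM in ND brains, with a log2 change of -0.62 ± 0.083 (SE, edgeR adjusted p = 7.78e-04). *Nuak2*, a kinase gene, was higher, at 27.5 to 28.8 CPM in CDD and 23.4 to 25.3 CPM in ND brains, with a log2 change of 0.23 (edgeR adjusted p = 0.0176). The call of *Igfbp3* held in all 8 fits with a brain left out, that of *Nuak2* in 5 and that of *Ccn2* in 4. Without ND replicate 1, 3 or 4 neither *Nuak2* nor *Ccn2* passed and the list had 1 called gene, and without CDD replicate 4 *Ccn2* missed the threshold (edgeR adjusted p = 0.0556).

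**Figure D4:**
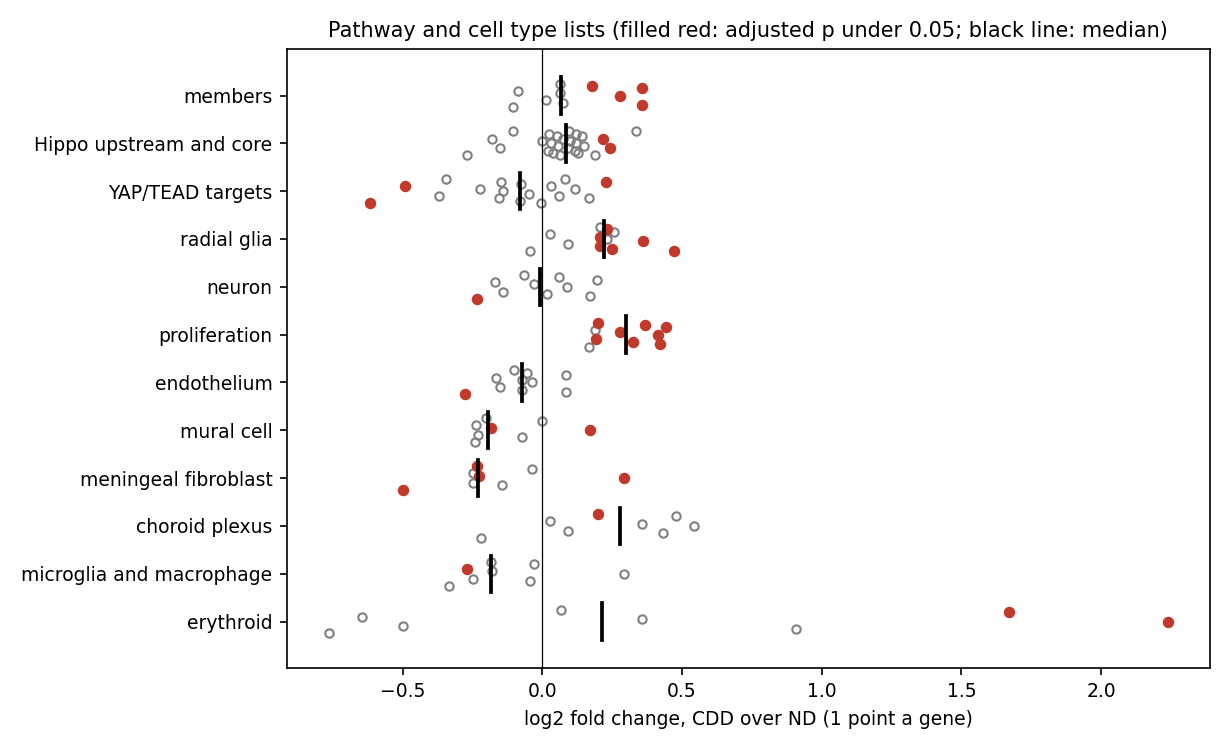
Log2 fold change of CDD over ND (horizontal axis) of each tested gene of the members, the other Hippo genes, the target genes and the cell type lists, 1 point a gene, filled red past an adjusted p of 0.05, with the list's median as a black line. The medians of the members (0.07), other Hippo (0.08), radial glia (0.22) and proliferation (0.30) lists lie above 0. So do those of the choroid plexus (0.28) and erythroid (0.21) lists. The medians of the target (-0.08), neuronal (-0.0069) and endothelial (-0.07) lists lie below 0. So do those of the mural cell (-0.19), meningeal fibroblast (-0.23) and microglia and macrophage (-0.18) lists.

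Radial glia and proliferation markers moved in the same direction as the called members, and the neuronal list did not. Over all tested genes, 4.24% were called higher and 4.59% lower. In a bulk sample, fewer cells of a type and less RNA per cell cannot be told apart. Of 12 radial glia genes, the markers of neural progenitors, 6 were called higher and 0 lower (median log2 fold change 0.22), with a summed level of 1905 to 2089 CPM in CDD and 1699.7 to 1832 CPM in ND brains. Of 10 proliferation genes, 8 were called higher and 0 lower (median 0.30), with a summed level of 969 to 1186 CPM in CDD and 769 to 886 CPM in ND brains. In both sums, as in the 4 called members, ND replicate 2 was the highest ND brain. CDD replicate 3 was the lowest CDD brain in both sums, as in *Tead1*, *Yap1* and *Wwtr1* but not in *Tead2*. Of 10 neuronal genes, 0 were called higher and 1 lower, at 6991 to 7820 CPM in CDD and 7260 to 7598 CPM in ND brains.

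Lists of vessels, brain coverings, choroid plexus and blood were read in the same way, beside 4.24% of all tested genes called higher and 4.59% lower. Of 10 endothelial genes 0 were called higher and 1 lower (summed level 299 to 316 CPM in CDD, 318 to 337 CPM in ND brains), and of 8 mural cell genes 1 was called in each direction (261 to 277 and 262 to 279.6 CPM). Of 8 meningeal fibroblast genes 1 was called higher and 3 lower (285 to 312 CPM in CDD, 301 to 365 CPM in ND brains), and of 8 microglia and macrophage genes 0 and 1 (68.7 to 75.9 and 76.9 to 87.1 CPM). The choroid plexus list had 1 of 8 genes higher and 0 lower (242 to 563 and 338 to 375 CPM), and the erythroid list 2 of 8 higher and 0 lower (469 to 812 and 433 to 1508 CPM). The median log2 change was 0.28 for the choroid plexus list and 0.21 for the erythroid list, also above 0. None of the listed markers was at 0 in every brain. The summed levels of the endothelial and microglial lists were lower in all CDD brains than in any ND brain, as *Ccn2* and *Igfbp3* were, the mean of the meningeal fibroblast sum was also lower (299 against 345 CPM, median log2 change -0.23), and the part of these cells in the values of the target genes was not tested.

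Each member was then set against the mean log2 CPM of the radial glia list in the same brain. *Tead2* was 0.15 higher relative to these markers in CDD brains, at 0.25 ± 0.081 against 0.095 ± 0.061 in ND brains (SD, n = 4; exact permutation p = 0.0286, the smallest possible). The difference was 0.15 for *Yap1* and 0.07 for *Wwtr1* (exact permutation p = 0.0571 each), and -0.03 for *Tead1* (exact permutation p = 0.514). *Lats1*, *Vgll4* and *Amotl2* were lower relative to the same markers, by differences of -0.14, -0.13 and -0.29 (exact permutation p = 0.0286 each). None of the 10 differences passed Benjamini-Hochberg adjustment over the 10 members (smallest adjusted p = 0.0714, exact permutation test). No member could pass it alone, since the smallest possible p passes only when enough other members share it. The marker list rose itself, so a member with a smaller change has a negative difference here.

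**Figure D5:**
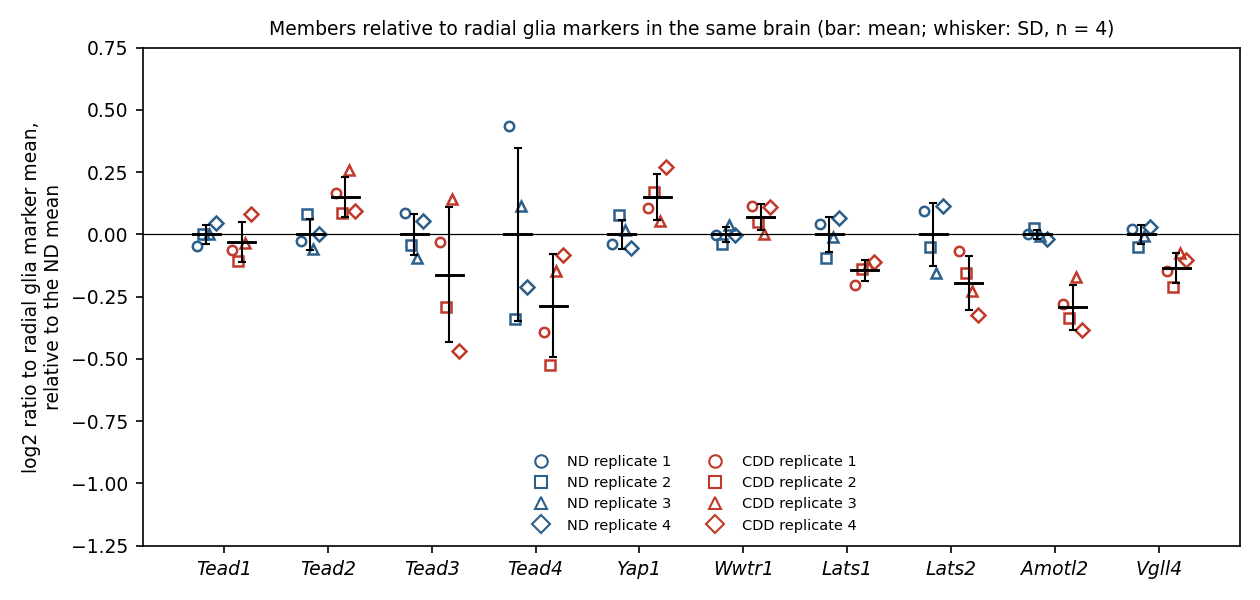
Log2 ratio of each member to the mean of the radial glia markers in the same brain, relative to the ND mean (vertical axis), with ND brains in blue and CDD brains in red, the mean (bar) and SD (whisker, n = 4). CDD brains lie above ND brains in *Tead2* and below them in *Lats1*, *Amotl2* and *Vgll4*, and *Tead1* is near 0 in both diets.

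The genes most like *Tead2* over the 8 brains were found by the root mean square difference of centred log2 CPM, among the 10719 genes whose mean reached 10 CPM. They were *Sox3* (0.0336), a transcription factor gene of neural progenitors, *Mcm3* (0.0426), a subunit of the replicative helicase, *Btg2* (0.0456), *Ttf2* (0.0470) and *Spc24* (0.0483), a kinetochore gene. The median of this difference over all candidates was 0.204. Values were centred over the brains of both diets together, so the measure includes the change between diets. Genes with a log2 change near the 0.36 of *Tead2* are therefore favoured, and the named genes ranged from 0.28 (*Spc24*) to 0.38 (*Sox3*). The order below, members included, thus largely restates the size of the diet change. Likeness within a diet was not tested. *Sox3* was at 54.1 ± 0.601 CPM in CDD and 41.5 ± 2.88 CPM in ND brains (SD, n = 4). Among the members, *Wwtr1* came nearest to *Tead2* at 0.101, at rank 164 of the candidates, followed by *Yap1* at 0.108 and *Tead1* at 0.124. The difference was 0.225 for *Amotl2*, 0.208 for *Tead3* and 0.206 for *Lats2*, each above the median of all candidates. It was 0.175 for *Lats1* and 0.158 for *Vgll4*, which were also uncalled but lay below that median. *Tead4* did not reach 10 CPM and was not a candidate.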

How the data were processed

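Whole-brain poly-A RNA of 4 CDD and 4 ND embryos was analysed, grouped by the diet in the sample titles. Deposited values were the authors' unnormalized gene counts, a normalized signal (the count over 1 size factor per brain) and FPKM values made from it by gene length. HISAT2 2.0.5, featureCounts 1.5.0-p3 and DESeq2 1.20.0 are named in the submitters' processing notes; the build and the strand setting are not given in the sources used here, and 2.14% of gene starts equal those of GENCODE M21 (GRCm38). The authors' own fold changes and p-values were not used.

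After filterByExpr 19367 genes remained. edgeR 4.0.16 (TMM scaling, robust quasi-likelihood fit) tested diet alone, with Benjamini-Hochberg adjustment over all genes tested (R 4.3.3). A standard error is the log2 fold change over the square root of F. Within-brain log2 CPM (prior count 2) was compared by exact two-sided permutation tests (SciPy 1.17.1). Both tests were checked on simulated data. There edgeR called 14 of 50 genes with a true log2 change of 0.25, 39 of 50 at 0.5 and 50 of 50 at 1. It also called 18 of 18905 genes simulated without a change. No pair of brains agreed within sampling noise (chi-square per degree of freedom at least 3.76).

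Members and lists were chosen with earlier results of these data known. Genes named are all members, list genes past the threshold and the 3 smallest p-values of each pathway list, the 2 most abundant genes of a marker list, and the 5 genes most like *Tead2*. *Stk3*, *Stk4*, *Sav1*, *Mob1a*, *Mob1b*, *Nf2*, *Wtip*, *Amotl1* and *Ptpn14* were added after their values were seen. Alternatives were DESeq2 1.42.0, RLE and upper-quartile scaling, limma-voom (limma 3.58.1), no filter, the replicate number as a block, *Xist* as a covariate, a gene length offset (loess span 0.3), a prior count of 0.5, FPKM with a pseudocount of 1, and each brain left out. Depth bounds counting error alone.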

Additional observations from a re-analysis of the deposited data

Results flagged for a closer look

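In 90 groups of 4 brains, 3 held a brain far from the other 3, where about 4.5 would by chance. CDD replicate 1 had a log2 CPM of 5.74 for *Taok3*, below the other CDD brains. CDD replicate 3 had a log2 CPM of 4.51 for *Igfbp3*, higher than in the rest of the CDD group. ND replicate 3 had a log2 ratio of *Lats1* to *Lats2* of 3.60, higher than in the rest of the ND group, and its *Lats2* level of 9.02 CPM was the lowest of the 8 brains.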

How the results depend on the processing

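The calls of *Tead2*, *Yap1* and *Wwtr1* held under all alternatives run and that of *Tead1* under all but the 3 fits named above. With each brain left out, between 471 and 2495 genes were called over all genes (471 without ND replicate 3, 615 without ND replicate 4, 688 without ND replicate 1), 3 to 4 members, 0 to 8 other Hippo genes (8 without CDD replicate 3) and 1 to 4 targets. The log2 fold change then lay between 0.13 and 0.20 for *Tead1*, -0.048 and 0.047 for *Lats2*, -0.028 and 0.15 for *Tead3* and -0.19 and 0.074 for *Tead4*, and the difference in log2 ratio between -0.0093 and 0.23 for *Tead1* to *Tead3* and -0.0052 and 0.11 for *Lats1* to *Lats2*. The other Hippo genes called numbered 4 with DESeq2, 1 with limma-voom, 5 with no filter, 4 with the *Xist* covariate and 6 with the gene length offset, against 2. On the deposited FPKM, 6 differences relative to radial glia markers passed adjustment (exact permutation, adjusted p = 0.0476 each): *Tead2* (0.15), *Tead4* (-0.22), *Lats1* (-0.13), *Lats2* (-0.19), *Amotl2* (-0.27) and *Vgll4* (-0.13). Whether a member passes this adjustment depends on how many members reach the smallest possible p, not on that member alone. The causes were not tested. The labels give same-numbered brains no shared origin. Their deviations correlated at 0.105, -0.133, 0.117 and 0.232 for numbers 1 to 4, and brains of 3 of the 4 numbers correlated best with their own number. With the replicate block, 1812 genes, 4 members, 3 other Hippo genes and 4 targets were called, and the log2 fold change was 0.36 for *Tead2* and 0.36 for *Yap1*. A paired exact test of the ratios, chosen after seeing the data, cannot go below p = 0.125 with 4 pairs, which the ratio of *Tead1* to *Tead2* (lower in CDD in 4 of 4 pairs) and that of *Tead2* to *Tead3* (higher in 4 of 4) reached. The 36 to 64 reads per brain limit *Tead4*.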
